A study of Mus musculus with 6 samples.

Results

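The genes described here encode the proteins of the mitochondrial ribosome, 76 of the 23185 genes with a single symbol on the array. They were taken by name: every gene whose annotated symbol begins with Mrpl or Mrps and a digit, pseudogenes left out. RNA came from hearts of FVB mice, an inbred strain, and each of 6 samples was hybridised to 1 Affymetrix array. Wild type mice gave 3 of the samples, and mice lacking irisin, a hormone cut from the membrane protein that Fndc5 encodes, gave the other 3. All the animals had been fed a chow with 10% fat for 24 weeks. The knockout line was produced by injecting FVB zygotes with Cas9 messenger RNA and 5 guide RNAs, and its littermates served as controls; the labels give neither sex nor the number of founders. They name the material once as cardiomyocytes and once as myocardium, and whether the arrays of a group are separate animals is only implied, so the p-values may measure a spread that is partly technical.

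Mitochondria carry their own ribosome, which translates only the few messages of mitochondrial DNA. These encode membrane-embedded subunits of the respiratory chain and of ATP synthase, on which a beating heart depends for most of its energy. The ribosomal RNAs are made inside the organelle, but every protein of the particle is encoded in the nucleus, made in the cytosol and imported. The large subunit joins amino acids and holds the exit tunnel, and the small subunit binds and decodes the message. Many of the proteins descend from those of bacterial ribosomes, and others exist only in mitochondria. Names follow the first purification and not always the place in the particle: Mrps30 and Mrps18a sit in the large subunit, and the product of Mrps36 is now known as a component of the oxoglutarate dehydrogenase complex.

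The targeted gene was checked first. Fndc5 read 7.83 to 8.42 log2 units on the wild type arrays, and 7.68, 5.49 and 5.45 in knockout replicates 1, 2 and 3. All knockout values were thus below all wild type values, but replicate 1 lay only just below, and where in the gene the deletion lies is not given in the labels. The difference was -2.01 (SE 0.54, adjusted p = 0.0359 in limma). Heart muscle markers were bright on every array: the mean of 10 genes such as Myh6 and Tnnt2 was 10.77 to 10.87 in wild type and 10.83 to 10.86 in the knockout. Array medians were 2.33 to 2.36 in wild type and 2.23 to 2.25 in the knockout, and the SD over genes was 2.01 to 2.07 and 2.14 to 2.16, so the spread of values differed with genotype. Any pair of arrays correlated at 0.959 to 0.993 across genes.

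Of the 76 genes of the mitochondrial ribosome 27 rose in the knockout, 1 (Mrps25) fell and 48 did not pass limma's test at an adjusted p of 0.05, where p-values were adjusted over all 23185 genes. Among all genes tested 10.4% rose and 6.18% fell. The median difference, knockout minus wild type, was 0.35 log2 units over the 76 genes and -0.05 over all genes. In 37 members all 3 knockout values were above all 3 wild type values, against 17.2% of all genes, and in 6 they were all below, against 17%. Array by array, the median over the 76 genes was 5.22, 5.42 and 5.16 in wild type replicates 1, 2 and 3 and 5.49, 5.57 and 5.55 in the knockout, so the groups did not overlap. Knockout replicate 1, with most Fndc5 signal left, lay just below the other knockout arrays in this median and above all wild type arrays. By the mean over the 76 genes it lay between them, at 5.43 against 5.47 and 5.36 in knockout replicates 2 and 3. Standard errors of the differences ran from 0.11 to 0.47, with a median of 0.15.

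**Figure D1:**
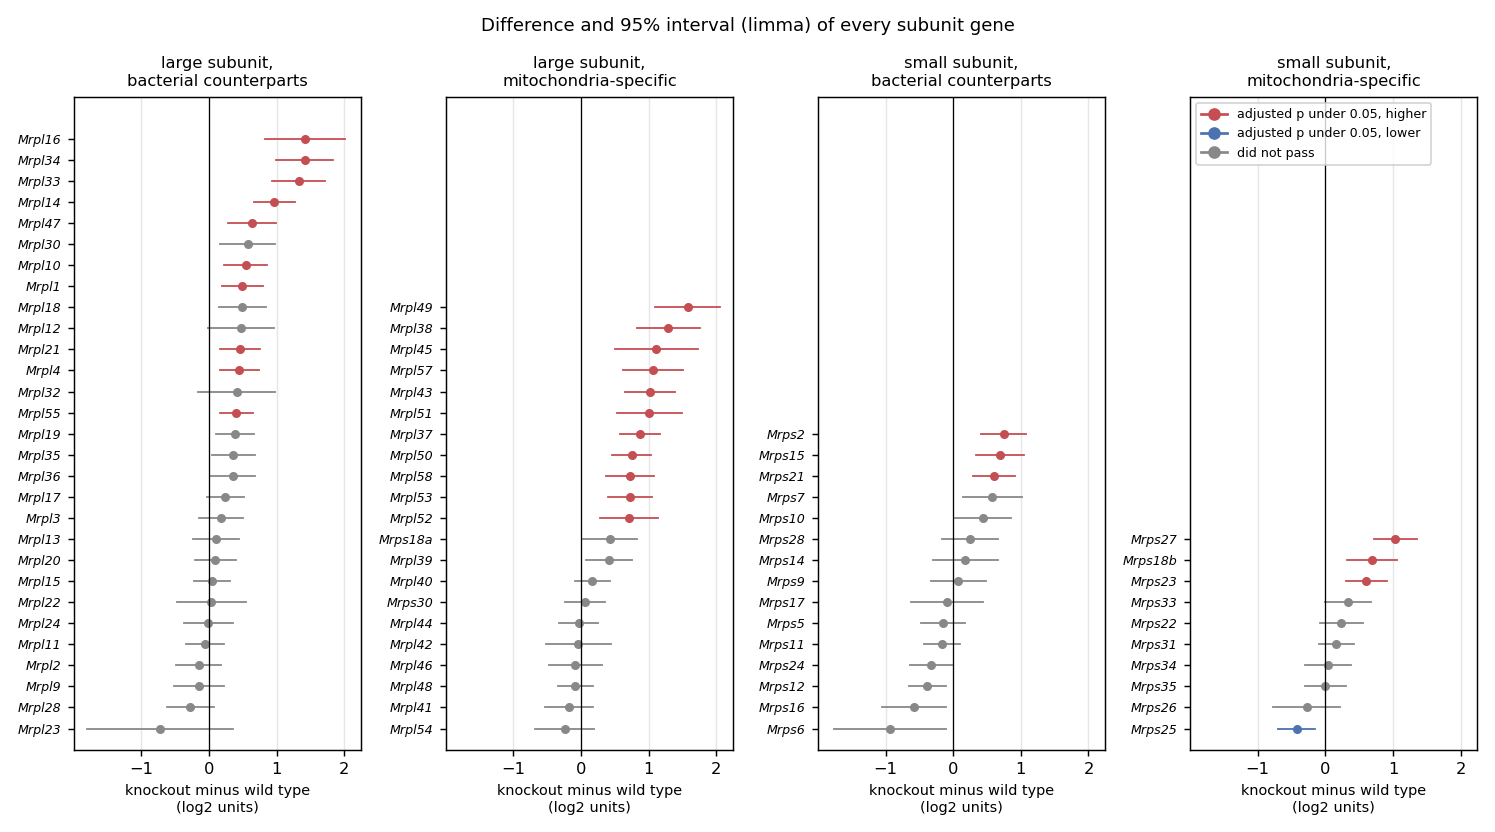
Difference of knockout and wild type means in log2 units (horizontal axis; points) with limma's 95% interval (lines) for the members in 4 classes, Mrps36 left out; red genes rose, the blue gene fell and grey genes did not pass. Rises fill the upper part of both large subunit panels, 21 of 50 genes, while Mrps25 is the only gene in blue.

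The share of genes that rose also varied with brightness. When genes were ordered by their mean over the 6 arrays and cut into 10 parts of equal size, the share that rose climbed from 0.0862% in the dimmest part (part 1) to 34.5% in the brightest (part 10). Of the members, 63 lay in the 3 brightest parts, and 23 of these rose (36.5%), with a median difference of 0.34. In the same 3 parts 26.9% of all 6956 genes rose and the median was 0.15. In part 9, which held most members, 12 of 31 rose against 25.5% of all genes there, and in part 10 the shares were close, with 7 of 19 against 34.5%. A scaling that takes out differences tied to level, cyclic loess between arrays, left 15 members higher and 3 lower, with a median of 0.19. Quantile normalization gave the same counts with a median of 0.22. Under it 8.13% of all genes rose, a share over genes of every level and not of the members' brightness. For each list below, the share of all genes that rose at its brightness is the mean, over the list's genes, of the share in each gene's own part.

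**Figure D2:**
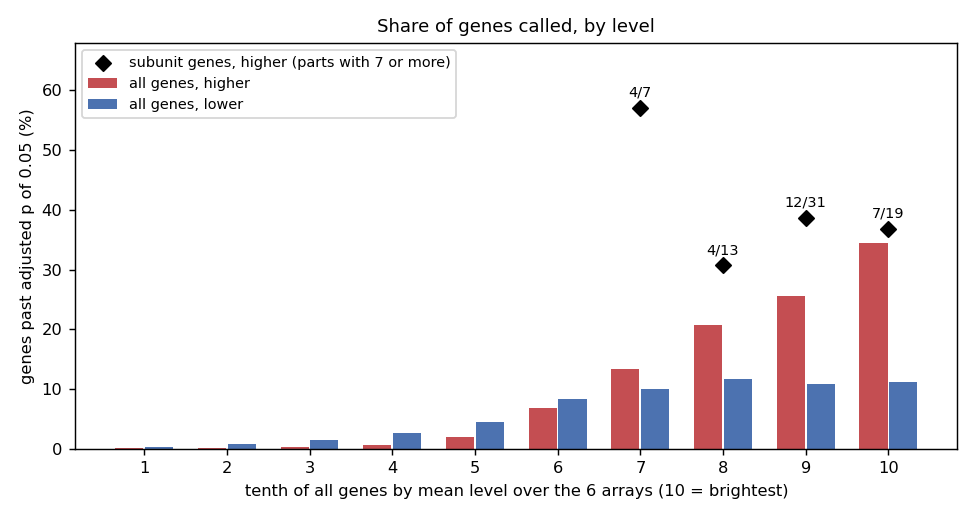
Percentage of all genes that rose (red bars) or fell (blue bars) at an adjusted p of 0.05 (vertical axis) in each of 10 parts by mean level (horizontal axis, 10 brightest), with the percentage of mitochondrial ribosome genes that rose (diamonds, with counts) in the parts that hold 7 or more. The red bars climb towards bright genes, and the diamond of the brightest part (7 of 19) lies close to its bar.

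Proteins of the large subunit accounted for most of the rises. Of its 50 measured genes 21 rose and 0 fell (28 had an unadjusted p under 0.05), with a median of 0.41; at their brightness 23.7% of all genes rose. Of 25 in the small subunit 6 rose (24%) and Mrps25 fell, with a median of 0.16, and at their brightness 25.6% of all genes rose, so that the small subunit's count was no more than its background. Whether the subunits differ was not tested. Within the large subunit, 11 of 21 mitochondria-specific genes rose (median 0.71) and 10 of 29 with bacterial counterparts did (median 0.39), against 24.3% and 23.3% of all genes at their brightness. In the small subunit the figures were 3 of 10 and 3 of 15, and each small subunit class had 1 or 2 rises without any 1 knockout array. After quantile normalization 13 large and 2 small subunit genes rose, with medians of 0.26 and 0.02. Without knockout replicate 1, 2 or 3 the large subunit kept 12, 12 and 13 rises and the small subunit 3, 2 and 3; the genes with bacterial counterparts in the large subunit then that rose numbered 4 each time, and 5 without wild type replicate 3. Mrpl27 and Mrps18c, one of each subunit, were not analysed here.

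The largest rise was that of Mrpl49, which encodes a large subunit protein with no bacterial counterpart. Mrpl49 (Entrez gene 18120) had values of 3.40, 2.94 and 2.69 on the wild type arrays, in the order of replicates 1 to 3 kept from here on, and 4.6, 4.86 and 4.29 on the knockout arrays. The means were 3.01 ± 0.36 and 4.58 ± 0.29 (SD, n = 3), a 2.98-fold difference, with every knockout array well above every wild type array (SE 0.21 on the log2 scale, 95% interval 1.09 to 2.06, limma adjusted p = 0.00218). Next came 3 genes of proteins with bacterial counterparts. Mrpl16 stood at 5.08, 4.25 and 3.96 in wild type and 5.94, 5.90 and 5.70 in the knockout, 2.67-fold higher (SE 0.26, adjusted p = 0.00753). Its wild type arrays were spread over more than a log2 unit, while the knockout arrays lay close together. Mrpl34 read 4.70, 5.26 and 4.70 against 6.48, 6.35 and 6.07, a 2.66-fold rise (SE 0.18, adjusted p = 0.00197). Mrpl33 read 5.01, 4.77 and 4.64 against 6.46, 6.04 and 5.91, 2.51-fold (SE 0.17, adjusted p = 0.00193). In both genes the gap between the groups exceeded the whole range of either group.

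**Figure D3:**
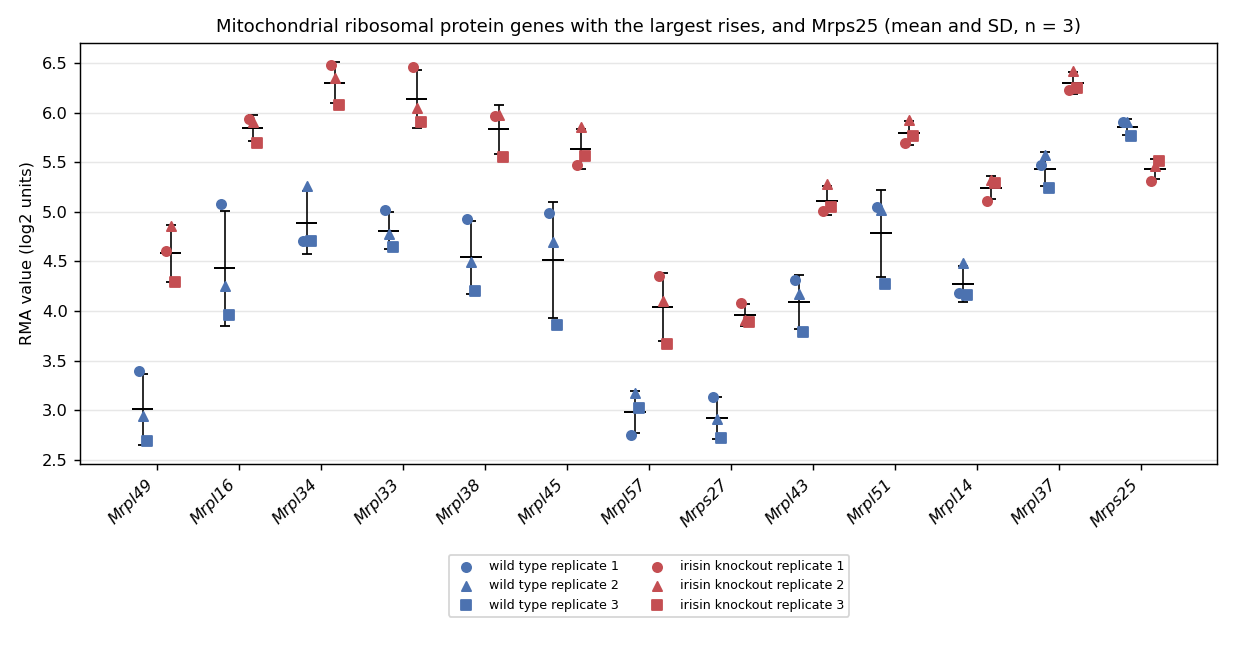
RMA values in log2 units (vertical axis) on each of the 3 wild type (blue) and 3 knockout (red) arrays for the 12 members with the largest rises and for Mrps25; bars are mean and SD, n = 3, and marker shapes are replicate numbers. In each of the 12 the red points lie above all blue points, for Mrpl49 at 4.29 to 4.86 against 2.69 to 3.40, and for Mrps25 they lie below. Heights are not comparable between genes.

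A further 8 genes complete those with the largest rises. Mrpl38, whose product helps form the central protuberance, the crest of the large subunit, read 4.93, 4.49 and 4.2 in wild type and 5.96, 5.98 and 5.55 in the knockout (2.44-fold, adjusted p = 0.00421). Mrpl45, which tethers the ribosome to the inner membrane beside the exit tunnel, read 4.99, 4.70 and 3.86 against 5.47, 5.85 and 5.57 (2.16-fold, adjusted p = 0.0239). Wild type replicate 3 was far below its fellows for Mrpl45, and the call was lost without any 1 knockout array (adjusted p up to 0.0983). Mrpl57 read 2.75, 3.17 and 3.02 against 4.35, 4.10 and 3.67 (2.09-fold). Mrpl43 read 4.31, 4.17 and 3.79 against 5.01, 5.28 and 5.05 (2.03-fold), and the 2 groups were again separate. Mrpl51 read 5.05, 5.02 and 4.28 against 5.69, 5.93 and 5.76 (2.02-fold), and lost its call without knockout replicate 2 (adjusted p = 0.0604). Mrpl14 read 4.18, 4.48 and 4.16 against 5.11, 5.32 and 5.29 (1.96-fold). Mrpl37 read 5.47, 5.57 and 5.24 against 6.23, 6.42 and 6.25 (1.83-fold). These last genes kept the same order, with no knockout array inside the wild type range. Mrps27, a pentatricopeptide-repeat protein, was the sole small subunit gene of the 12: it read 3.14, 2.91 and 2.72 against 4.08, 3.91 and 3.88 (2.05-fold, adjusted p = 0.00232).

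The other 15 genes that rose did so by 0.41 to 0.75 on the log2 scale, with adjusted p-values of 0.0058 to 0.0435 in limma. In the large subunit they were Mrpl50 (0.75), Mrpl58 (0.73), Mrpl53 (0.72), Mrpl52 (0.71), Mrpl47 (0.63), Mrpl10 (0.54), Mrpl1 (0.49), Mrpl21 (0.46), Mrpl4 (0.45) and Mrpl55 (0.41). Mrpl58, also called Ict1, is a peptidyl-tRNA hydrolase that frees stalled ribosomes and is itself built into the particle. It read 7.0, 6.78 and 6.49 in wild type and 7.65, 7.40 and 7.39 in the knockout. In the small subunit Mrps2 (0.74), Mrps15 (0.70), Mrps18b (0.69), Mrps21 (0.61) and Mrps23 (0.60) rose. Over the 27 genes the median fold was 1.67 and 10 reached 2-fold. The count was 15, 14 and 16 without knockout replicate 1, 2 or 3. Rises that held in all 11 other settings run at this threshold and in all 6 fits without 1 array were those of Mrpl14, Mrpl16, Mrpl33, Mrpl34, Mrpl37, Mrpl38, Mrpl43, Mrpl49, Mrpl50, Mrpl57 and Mrps27.

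The only gene that fell was Mrps25, a mitochondria-specific protein of the small subunit. It read 5.90, 5.90 and 5.76 in wild type and 5.31, 5.47 and 5.51 in the knockout, a fall of 1.34-fold (SE 0.12 on the log2 scale, limma adjusted p = 0.0404). The knockout arrays lay wholly below, but the call was lost without any 1 array (adjusted p 0.0539 to 0.142). Another 5 members also had all knockout values below all wild type values without passing, and all encode small subunit proteins with bacterial counterparts. That class of 15 genes did not fall as a whole: 5 others had all knockout values above, and its median was 0.08. Of all genes 17% had all knockout values below. Mrps12, the counterpart of a protein at the bacterial decoding centre, read 5.82, 5.59 and 5.62 against 5.22, 5.37 and 5.28 (adjusted p = 0.0632). Mrps24 read 6.69, 7.08 and 6.92 against 6.51, 6.54 and 6.67 (adjusted p = 0.149). Both gave small but even gaps, and both passed as lower after quantile normalization and after cyclic loess. Mrps16 read 5.37, 5.91 and 5.62 against 5.32, 5.21 and 4.64 (adjusted p = 0.102), and the difference of Mrps11 was -0.16. Mrps6 had the most negative difference, -0.93 (SE 0.36, adjusted p = 0.127), with 8.09, 6.77 and 6.48 in wild type against 6.30, 6.02 and 6.23. Its size rests on wild type replicate 1, which stood over a log2 unit above any other array.

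Neighbouring proteins in the particle did not all move together. In the stalk, which recruits translation factors, 2 of 5 genes rose, where 28.2% of all genes of that brightness did. Mrpl10, the base to which copies of Mrpl12 attach, read 5.34, 5.04 and 5.44 in wild type and 5.94, 5.81 and 5.71 in the knockout (adjusted p = 0.0326), and Mrpl53 read 6.09, 6.15 and 5.82 against 6.89, 6.75 and 6.58 (adjusted p = 0.0102). Mrpl12 itself read 7.44, 7.15 and 6.53 against 7.39, 7.61 and 7.53, and its groups overlapped through wild type replicate 1 (0.47, adjusted p = 0.187). Mrpl11 read 4.99, 5.05 and 4.86 against 4.88, 4.81 and 5.05. Mrpl54 read 5.70, 6.19 and 5.43 against 5.42, 5.62 and 5.56. Their groups overlapped (-0.05 and -0.24). One of the 5 passed without each single knockout array or wild type replicate 2, and 1 did after quantile normalization.

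Of 7 measured genes of the central protuberance, Mrpl38, Mrpl52 and Mrpl55 rose, against 21.7% of all genes of that brightness. Mrpl52 read 5.98, 5.62 and 5.28 in wild type and 6.27, 6.53 and 6.23 in the knockout. Mrpl55 read 5.74, 5.69 and 5.70 against 6.12, 6.15 and 6.08, with SDs of 0.02 and 0.03, although the call was lost without any 1 array. Mrpl18 read 7.12, 7.19 and 6.73 against 7.38, 7.52 and 7.62, which kept the groups apart but missed the threshold (0.49, adjusted p = 0.0619). Mrpl40 read 4.97, 4.94 and 4.92 against 5.03, 5.22 and 5.08 (0.17, 95% interval -0.09 to 0.42). Mrpl46 read 2.93, 3.29 and 2.94 against 2.78, 3.29 and 2.85. Mrpl48 read 3.58, 3.56 and 3.72 against 3.59, 3.55 and 3.46. In these last 2 genes the groups overlapped. Only Mrpl38 of this region passed after quantile normalization, and 1 gene of the region passed without each single knockout array or wild type replicate 3.

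Around the exit of the tunnel, 2 of 7 genes rose, Mrpl45 and Mrpl47, against 20.8% of all genes of that brightness. Counts this small carry little beside such a background. Mrpl47 read 4.71, 4.16 and 4.54 in wild type and 5.20, 5.02 and 5.09 in the knockout (0.63, adjusted p = 0.0265). Mrpl17 read 5.14, 4.99 and 5.03 against 5.40, 5.14 and 5.36, and Mrpl32 4.24, 4.11 and 3.45 against 4.77, 4.08 and 4.17; both sets of arrays overlapped. Mrpl22 read 4.82, 5.70 and 4.86 against 5.13, 5.21 and 5.14. Mrpl24 read 6.72, 6.89 and 6.59 against 6.51, 7.01 and 6.64. The differences of these genes, 0.03 and -0.01, were well within their errors (SE 0.22 and 0.16). Mrpl23 was dim, at 0.92, 2.92 and 1.16 against 0.77, 1.38 and 0.67, and no detection call was used here that would tell such values from background. After quantile normalization 1 of the 7 passed, and 0 did so without knockout replicate 1, 2 or 3, although Mrpl45 kept a positive difference in each.

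Variants of 4 of these genes cause cardiomyopathy in people, and none of the 4 passed here in limma (0 had an unadjusted p under 0.05). At their brightness 19% of all genes rose and 8.72% fell, so an absence of calls among 4 genes says little. Mrpl3 read 6.48, 6.45 and 6.09 in wild type and 6.43, 6.51 and 6.64 in the knockout, a difference of 0.18 (95% interval -0.14 to 0.51). Mrpl44 read 4.22, 4.52 and 4.30 against 4.23, 4.36 and 4.34 (-0.04, interval -0.32 to 0.25). Mrps22 read 4.19, 4.35 and 4.14 against 4.28, 4.68 and 4.44 (0.24, interval -0.08 to 0.56). In each of these genes the 2 groups overlapped. Mrps14 was dim, at 0.48, 0.82 and 0.89 against 1.22, 0.45 and 1.07, and so was Mrps36, at 2.06, 0.90 and 0.89 against 1.90, 1.99 and 0.81. In both, the groups overlapped.

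The 48 members that did not pass ranged from -0.93 to 0.58, 28 above 0 and 20 below. In 10 of them the knockout arrays were all above the wild type arrays: Mrps7 (0.58), Mrpl30 (0.57), Mrpl18 (0.49), Mrps10 (0.45), Mrpl39 (0.41), Mrpl19 (0.39), Mrpl35 (0.36), Mrpl36 (0.36), Mrpl40 (0.17) and Mrps31 (0.16). In 5, named above, they were all below. Over all genes, called or not, the arrays were separate upwards in 17.2% and downwards in 17%. For 17 members the 95% interval of the difference lay wholly within 0.5 log2 units of 0, among them Mrps35, Mrpl15, Mrps30 and Mrpl13. Members varied more between wild type than between knockout arrays: the SD was larger in wild type for 56 of 76, with a median of 0.21 against 0.13, as it was for 62.9% of all genes. Wild type replicate 3 held the lowest wild type value of 49 members and the highest of 4. Without it the median difference was 0.24 and 19 members rose.

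Partners of the ribosome were examined from lists of genes by function. The proteins of the particle that bear other names were mixed: Ptcd3 and Dap3 rose by 0.96 and 0.71, and Chchd1 fell by 0.62. Of 4 measured 3 passed, and 1 did with any 1 knockout array left out. At their brightness 23.55% of all genes rose and 10.9% fell. Of 29 genes listed as assembly factors 10 rose and 0 fell (18 had an unadjusted p under 0.05), with a median of 0.39. At their brightness 17.4% of all genes rose. The list was drawn broadly: it includes Tmem70, Lrpprc and Slirp, which are not strictly assembly factors of the ribosome. Fastkd2, which binds the large ribosomal RNA, read 3.27, 3.05 and 3.00 in wild type and 4.45, 4.34 and 4.25 in the knockout, a 2.36-fold rise (SE 0.13, limma adjusted p = 0.000757). Mterf3 rose 2.42-fold, the small subunit GTPase Eral1 1.80-fold and the GTPase Noa1 2.79-fold. These rises were of the size of the larger ones among the ribosomal proteins. Assembly factors that rose numbered 6 without knockout replicate 1 and 5 without replicate 2.

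Factors that work on the assembled ribosome followed the same direction. Of 13 translation factors 8 rose and 0 fell (9 had an unadjusted p under 0.05), with a median of 0.54; at their brightness 22.3% of all genes rose. The recycling factor Mrrf read 4.74, 4.83 and 4.33 in wild type and 6.03, 6.18 and 5.75 in the knockout, 2.55-fold higher (SE 0.17, limma adjusted p = 0.00176). The release factors Mtrf1 and Mtrf1l rose by 0.92 and 0.58, and Oxa1l, which inserts new chains into the inner membrane, rose by 0.92. Tufm, the elongation factor that delivers transfer RNA, read 4.69, 4.04 and 3.77 against 3.67, 3.89 and 3.6 and did not pass (-0.45, adjusted p = 0.23; named after its values were seen). Thus the factor list was not uniform either. After quantile normalization 5 of the 13 rose, and 3 did so without knockout replicate 2.

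Of 11 genes of mitochondrial transcription and genome upkeep 3 rose. Tefm rose by 0.70, the helicase gene Twnk by 0.63 and the transcription factor gene Tfb2m 3.05-fold. At the brightness of the 11 genes 10.6% of all genes rose. The median of that list was 0.12, but 0.05 without knockout replicate 1, 0.22 without knockout replicate 3 and 0.21 after quantile normalization. Among 14 nuclear regulators of mitochondrial genes 4 rose, Esrrg (1.12), Esrrb (0.75) and Perm1 (0.87) among them, and 2 fell, with Pprc1 down by 0.45; at their brightness 24.4% of all genes rose and 11.1% fell. The remaining pair, named after their values were seen, are Gabpa and Nrf1, factors long known to bind promoters of genes for mitochondrial proteins, with differences of 0.55 and -0.40. Gabpa read 6.01, 5.79 and 5.58 in wild type and 6.46, 6.34 and 6.25 in the knockout, and Nrf1 read 4.42, 4.64 and 4.45 against 4.11, 4.05 and 4.14. The median of the regulators, 0.09, turned to -0.06 after quantile normalization, where 2 rose and 3 fell, and to 0.19 with each array centred on its median, where 4 rose and the falls of Pprc1 and Nrf1 did not pass. In other fits 2 rose and 0 fell without knockout replicate 1 or 2, 3 and 0 without knockout replicate 3 or wild type replicate 2, and 2 and 1 without wild type replicate 3. Of 12 genes of the mitochondrial stress response 0 rose and Atf4 fell, by 0.73 (limma adjusted p = 0.00757). In limma 3 had an unadjusted p under 0.05. At their brightness 15.8% of all genes rose and 8.7% fell, so the count of falls was close to its background.

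Cytosolic ribosomal proteins, the nearest counterpart outside the organelle, had few calls. Of 64 genes 2 rose and 3 fell, Rplp1 (-0.96), Rps4l (-0.75), Rps16 (1.19) and Rpl10 (-0.51) with the lowest p and then Rpl27a (0.94), with 18 at an unadjusted p under 0.05 in limma and a median of -0.07 (0.03 with each array centred on its median, where 5 rose and 2 fell). Without knockout replicate 1 the counts were 1 and 1, without knockout replicate 2 they were 1 and 2, without knockout replicate 3 they were 1 and 3, without wild type replicate 2 they were 2 and 1, and without wild type replicate 3 they were 0 and 4. At the brightness of this list 9.51% of all genes rose and 6.21% fell. Many of these genes have near-identical pseudogenes, so their values are uncertain. Complex I, whose core includes products of the mitochondrial ribosome, had 7 of 34 nuclear genes higher and 4 lower. At their brightness 31.3% of all genes rose and 10.8% fell, so the rises were below that share. By p the calls were led by Ndufc1 (1.30), Ndufs8 (1.08), Ndufb9 (0.77) and Ndufa5 (-0.89). Quantile normalization changed this to 5 higher and 7 lower and the median from 0.09 to -0.09 (rises 4, falls 2 without knockout replicate 1; 5 and 1 without replicate 2 or 3; 4 and 4 without wild type replicate 3). No test compared these lists with the mitochondrial ribosome. Genes encoded by mitochondrial DNA were not analysed here.

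**Figure D4:**
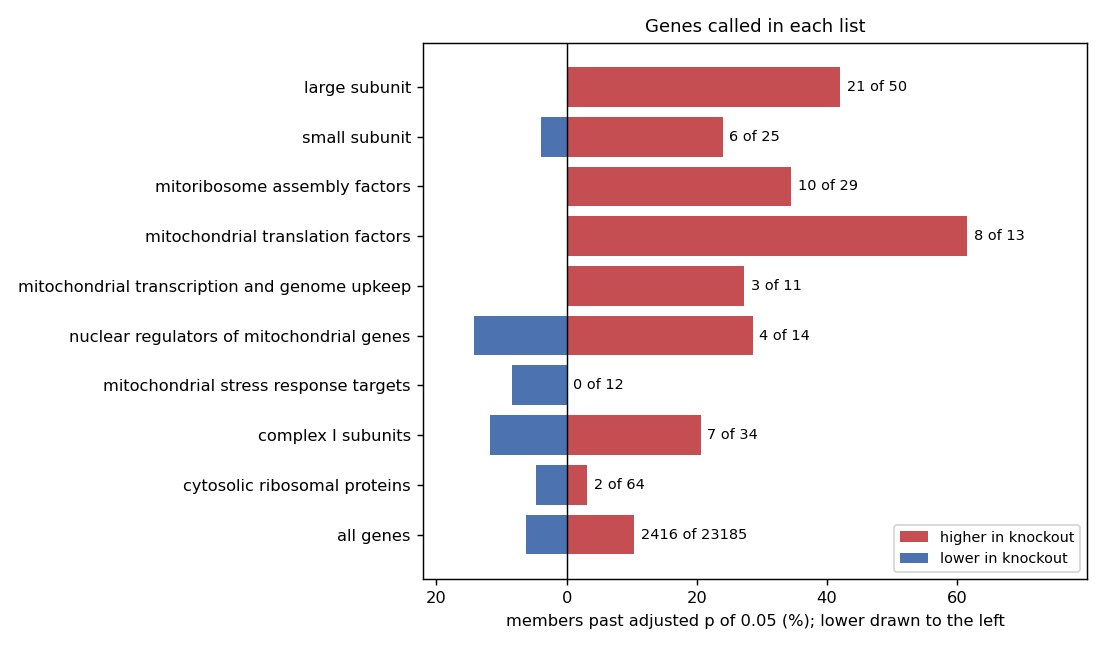
Percentage of measured genes in each list that rose (red, to the right) or fell (blue, to the left) in the knockout at an adjusted p of 0.05, with counts of those that rose. Large subunit genes (21 of 50), assembly factors (10 of 29) and translation factors (8 of 13) have longer red bars than all genes (2416 of 23185), a comparison that leaves out the brightness of each list.

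Markers of other heart cells moved with genotype beside these genes. In bulk samples fewer cells of a type cannot be told apart from less RNA per cell. Smooth muscle markers fell for 5 of 7, with a list mean of 5.99 to 8.0 in wild type and 4.6 to 4.98 in the knockout. Fibroblast markers fell for 5 of 8 (7.07 to 7.89 against 6.28 to 6.51) and endothelial markers for 3 of 8 (7.32 to 7.37 against 6.58 to 6.87). Macrophage markers fell for 1 of 7 (Mrc1; 4.61 to 4.72 against 4.45 to 4.53), and 0 of 3 red cell and 0 of 6 adipocyte markers passed in limma (1 and 0 had an unadjusted p under 0.05). Wild type replicate 2 stood apart in red cell markers, with a mean of 4.57 against 2.65 and 2.79; without it 2 adipocyte markers passed as lower, and without wild type replicate 1 a single red cell marker did. At the brightness of the smooth muscle, fibroblast and endothelial markers 10.5%, 11.2% and 11.2% of all genes fell. For macrophage, red cell and adipocyte markers these shares were 10.4%, 5.62% and 5.7%. Among heart muscle markers 1 of 10, Pln, rose, where 34.5% of all genes of that brightness did. None of the markers was at 0. With knockout replicate 1, 2 or 3 left out, 3, 2 and 3 smooth muscle markers passed; 3 fibroblast markers did so without replicate 2 or 3, and Pln did not pass without any 1 knockout array. After cyclic loess 0 heart muscle markers rose and 3 fell. Their part in the rise of the ribosomal genes was not tested.

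The genes lie on 17 chromosomes, at most 10 on any one. Start sites were taken from RefSeq (GRCm38.p6), which gave a promoter for 67 members; the array's own probe coordinates were not used. A gene on the other strand started within 1000 bases of 24 members and pointed away from them. These form 23 pairs, since Mrpl46 and Mrps11 are each other's neighbour. Of the 24 neighbours 8 rose, 3 fell and 13 did not pass, where at their brightness 16.4% of all genes rose and 9.34% fell. Both partners rose in 4 of the 12 pairs whose member rose. These were Mrpl14 with Tmem63b (0.97 and 1.08), Mrpl37 with Cyb5rl (0.87 and 1.13), Mrpl43 with the helicase gene Twnk (1.02 and 0.63) and Mrps27 with the pentatricopeptide-repeat gene Ptcd2 (1.04 and 0.88). In others they parted. Mrpl49 rose while Fau, a cytosolic ribosomal protein gene 192 bases away, stood at a difference of 0.02 (adjusted p = 0.957), and Mrpl51 rose by 1.01 while Ncapd2 fell by 0.79. Neighbours rose just as often beside members that did not pass as beside those that rose. Tcp1 rose by 0.72 beside Mrpl18, Psma2 by 0.70 beside Mrpl32 and Pnpla7 by 0.45 beside Mrpl41. Mrps12, not called, faces the mitochondrial seryl-tRNA synthetase gene Sars2, which rose by 0.52. The annotated span of 24 members, 12 of those that rose among them, overlaps that of another gene, and signal from shared bases cannot be told apart there. Mrpl49 (with Syvn1), Mrpl14, Mrpl33, Mrpl37, Mrpl43, Mrpl57 and Mrps27 are cases among the largest rises, and Mrps25 (with Nr2c2), which fell, is another case. For Mrpl14, Mrpl37 and Mrpl43 the overlapping gene is the neighbour that rose with them.

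Promoters were searched on both strands, from 250 bases before to 50 after the start, for short letter runs known from factors that bind genes of this kind. The ETS run CCGGAAG, recognised by GABPA, was found at 24 of 67 members (35.8%), against 9.93% of 27025 genes and 12.9% of protein-coding ones; its longer form CCGGAAGT, which contains it, was found at 10 (14.9% against 4.31%). The NRF1 run GCATGCGC was found at 8 (11.9% against 3.05%) and the YY1 run AAGATGGCG also at 8 (11.9% against 1.64%). The E-box CACGTG was found at 4 (5.97% against 8.09%), AAGGTCA of the oestrogen-related receptors at 4 (5.97% against 5.38%) and its longer form TCAAGGTCA at 0 (0.466% of all genes). Among protein-coding genes alone the shares were 5.69% for CCGGAAGT, 3.93% for NRF1 and 2.14% for YY1. They were 8.91% for the E-box, 4.73% for AAGGTCA and 0.377% for TCAAGGTCA. The shorter ETS run was present at 13 of 25 members that rose and 11 of 41 that did not pass, NRF1 at 3 and 5, and YY1 at 2 and 6. These are matches of letters and not sites of binding, and no test was made of them.

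Bases just upstream of the start are printed below for a few of these genes. How alike their promoters are was not measured. The stretches end at the base before the start, run 5′ to 3′ along the gene's own strand and stop short of any other annotated gene; capitals mark the runs searched for. They hold at most 150 bases, fewer than the region searched above, and matches outside them are not shown. Within the bases printed, the first has the largest rise and no match, and the next 2 rose and carry an ETS run. The fourth rose and carries an NRF1 run, and the fifth did not pass yet carries the longer ETS run close to its start. The last fell and has no match within the bases printed.
Mrpl49, chr19:6057756-6057905, minus strand: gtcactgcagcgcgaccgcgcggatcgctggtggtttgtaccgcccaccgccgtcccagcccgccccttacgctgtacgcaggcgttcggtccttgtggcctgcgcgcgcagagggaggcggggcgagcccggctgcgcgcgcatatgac
Mrpl34, chr8:71464776-71464925, plus strand: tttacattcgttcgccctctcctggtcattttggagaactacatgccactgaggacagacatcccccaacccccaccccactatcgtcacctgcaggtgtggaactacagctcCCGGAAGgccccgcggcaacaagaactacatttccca
Mrpl51, chr6:125192110-125192199, plus strand: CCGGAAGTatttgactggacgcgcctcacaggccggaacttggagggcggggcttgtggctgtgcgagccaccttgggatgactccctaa
Mrpl10, chr11:97041432-97041581, plus strand: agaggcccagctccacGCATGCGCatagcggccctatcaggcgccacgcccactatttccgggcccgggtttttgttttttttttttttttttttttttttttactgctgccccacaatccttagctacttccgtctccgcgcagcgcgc
Mrpl3, chr9:105053118-105053267, plus strand: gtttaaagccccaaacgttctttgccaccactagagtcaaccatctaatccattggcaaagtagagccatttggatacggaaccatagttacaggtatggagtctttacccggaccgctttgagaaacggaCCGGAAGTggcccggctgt
Mrps25, chr6:92184024-92184173, minus strand: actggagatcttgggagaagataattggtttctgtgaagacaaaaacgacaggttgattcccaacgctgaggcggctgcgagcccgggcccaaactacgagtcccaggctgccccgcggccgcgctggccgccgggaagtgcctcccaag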

How the data were processed

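The authors deposited log2 values, 1 per probe set and array, made by RMA; the submitters' processing notes name affy 1.61.0 and R 3.6.0. The log2 scale was inferred from the range of the values. For probe set definition, genome build and the RMA steps run, the labels give nothing. RMA can compress differences of dim genes, and no detection calls were used. Of 25206 rows, the platform annotation named 23185 with 1 symbol each, 0 with several and 2021 with none, and all 76 members matched RefSeq by Entrez number.

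Genotype was the only term in limma 3.58.1 (lmFit, eBayes, R 4.3.3), fitted on all 23185 named genes, with two-sided p-values adjusted by Benjamini-Hochberg over that whole set and a threshold of 0.05. Groups and replicate numbers came from the titles. Of 3 arrays per group, the number limits precision. The code was tested on simulated data. Promoters and gene spans came from RefSeq tables of GRCm38.p6; plots used matplotlib 3.10.9.

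Named with every array's value were the 12 largest rises, every fall and the members of short lists by place in the ribosome; in other lists, at most 4 genes that passed, by p, except where said. The members and lists were chosen with earlier results of these data known. One pseudogene was left out of the complex I list. Alternatives were 3 scalings, filters on dim genes, all rows, other variance models, array weights, a replicate block, other thresholds and leaving out arrays. Shares of all genes at the brightness of each list were added after the data were seen.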

Additional observations from a re-analysis of the deposited data

How the results depend on the processing

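The 27 rises and 1 fall became 15 and 3 after quantile normalization and also after cyclic loess, and 31 and 0 after centring each array on its median. All 15 that rose under either of the first pair were among the 27. The median difference of the members, 0.35, was then 0.22, 0.19 and 0.45, and that of all genes went from -0.05 to within 0.01 of 0 in the first pair and to 0.06 after centring. Leaving out 1 array left 14 to 27 rises, 0 falls in each fit and a median of 0.24 to 0.42. A threshold of 0.01 gave 11 and 0, and one of 0.1 gave 32 and 2. The fall was also lost with an intensity trend (24 rises, 0 falls) and without both arrays numbered 1 (18 and 0). Filters on dim genes, all rows, robust variances and array weights gave 27 to 29 rises and 1 fall. The replicate number as a block gave 22 rises and 0 falls among members, and 4 and 0 among the nuclear regulators, where Pprc1 and Nrf1 no longer passed. Arrays sharing a number correlated in their deviations at 0.0896, 0.0478 and 0.07, and wild type replicate 2 correlated best with knockout replicate 3, so the numbers were not taken as pairs. Of the 28 called members 13 kept their call in all 6 fits without 1 array. No called direction reversed, but 8 named members that did not pass changed sign in some setting (Mrpl3, Mrpl11, Mrpl22, Mrpl24, Mrpl44, Mrpl46, Mrpl48 and Mrps14), none of them passing there. The causes were not tested. The 3 arrays per group limit what could be called. Without passing, 10 further members separated the groups upwards and 5 downwards. With called genes included, 37 and 6 of the 76 members did so, against 17.2% and 17% of all genes.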
